A study of Mus musculus with 15 samples.

Results

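Immediate early genes are transcribed within minutes of a stimulus from factors already present in the cell, without new protein synthesis. A set of 10 such genes was described in single microdissected mouse kidney tubules and in whole mouse kidney. They were chosen by name (Fos, Fosb, Egr1, Atf3, Jun, Junb, Dusp1, Zfp36, Ier2 and Ier3), and all 10 were found once each among the 47069 genes measured. The study measured RNA by RNA-Seq in 15 libraries from male C57BL/6 mice, 2 months old. Of these, 12 were single tubules labelled PTS2, a proximal tubule sample in 3 sets of 4 named m1, m2 and m3, and 3 were whole kidney. No treatment, genetic change or time course is labelled, and all libraries share strain, sex and age. The labels do not say what the letter m or the replicate numbers stand for, how long dissection took, or whether libraries of 1 set came from 1 animal. P-values therefore measure the spread between these libraries only, which may be technical in part.

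The pathway is well known in outline. Growth factors, stretch, injury and stress activate MAP kinase cascades, which lead to phosphorylation of the serum response factor complex and CREB at promoters of these genes. The products include the AP-1 proteins Fos, Fosb, Jun and Junb, the zinc finger factor Egr1 and the stress-induced factor Atf3, and also brakes on the response, the MAP kinase phosphatase Dusp1 and the mRNA-destabilizing protein Zfp36. The same genes are known to rise when tissue is cut, digested or kept warm before lysis, which makes them a usual check on dissected material.

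Values were TPM, a length-scaled share of transcripts in which each library sums to 1000000 and levels can be compared between genes on that scale. TPM keep no depth, so the counting error of a value is unknown, and a gene listed at 0 may have been under detection. Between 24557 and 30849 genes were listed at 0 in PTS2 libraries and between 26418 and 26883 in whole kidney. The 8 markers of all proximal segments summed to 21997 to 28241 TPM in PTS2 (median 23756) and 19105 to 20019 TPM in whole kidney. For S1 markers the median PTS2 sum was 45.8 TPM beside a kidney mean of 858 TPM, and for S3 markers 3225 beside 1192 TPM. For S2, the labelled segment, these were 658 and 757 TPM, and the S2 sum ran from 368 to 1149 TPM over the tubules. In replicate 4 of m1, m2 and m3 the S2 sum was the highest of its set (1149, 892 and 1024 TPM). The S3 sum was the lowest of its set there (2123, 2734 and 2885 TPM). Every tubule was above every kidney library for 3 of 3 S3 markers and for 0 of 2 S2 markers. For 1 of those 2 S2 markers every tubule was below every kidney library. These markers therefore show proximal tissue low in S1 genes. Relative to whole kidney it was high in S3 markers and, in the median, not in those of S2, the labelled segment. Which segment the tubules came from was not tested. Tubule m3 replicate 3 held thick ascending limb markers at 1441 TPM, where the other 11 were between 4.75 and 55.8 TPM.

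The promoters of 3 genes are shown because they span the range of levels, Dusp1 and Zfp36 being the most abundant of the 10 in PTS2 and Fos a gene listed at 0 in most tubules. Each is 300 bases, from 250 before the transcription start, taken from RefSeq (GRCm38.p6) and printed 5′ to 3′ on the strand of the gene. Capitals mark matches on either strand to 4 motifs: the cAMP response element TGACGTCA, its core TGACGT (which every full site contains), the EGR motif GCGGGGGCG or GCGTGGGCG, and the CArG box of the serum response factor.
Dusp1, chr17:26508423-26508722, minus strand: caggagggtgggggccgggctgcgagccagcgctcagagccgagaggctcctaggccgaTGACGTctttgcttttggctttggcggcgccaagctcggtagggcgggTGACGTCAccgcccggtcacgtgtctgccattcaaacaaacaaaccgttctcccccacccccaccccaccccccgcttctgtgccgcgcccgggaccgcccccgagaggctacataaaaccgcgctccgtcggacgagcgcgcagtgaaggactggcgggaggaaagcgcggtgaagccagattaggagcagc
Zfp36, chr7:28379179-28379478, minus strand: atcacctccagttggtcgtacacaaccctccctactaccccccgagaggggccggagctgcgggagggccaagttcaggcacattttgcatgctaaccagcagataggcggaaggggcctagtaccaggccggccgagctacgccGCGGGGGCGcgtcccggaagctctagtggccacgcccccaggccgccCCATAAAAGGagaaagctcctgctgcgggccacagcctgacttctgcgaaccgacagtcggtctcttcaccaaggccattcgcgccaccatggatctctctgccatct
Fos, chr12:85473640-85473939, plus strand: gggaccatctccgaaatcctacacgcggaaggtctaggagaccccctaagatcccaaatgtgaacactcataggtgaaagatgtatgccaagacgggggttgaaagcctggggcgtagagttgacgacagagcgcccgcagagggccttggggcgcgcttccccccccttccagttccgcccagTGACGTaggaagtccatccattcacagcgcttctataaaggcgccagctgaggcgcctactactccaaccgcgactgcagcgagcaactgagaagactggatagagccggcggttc
The Dusp1 window lies inside the annotated gene span given below, 56539 bases, and not at its far end. A window was used for 8 of the 10 genes. A CArG box was found in 1 of these 8, Zfp36, and in 1.63% of all 32851 promoter windows. The full cAMP response element was found in 1, Dusp1, and in 1.79% of all windows, and the core in 3 (Dusp1, Fos and Atf3) and in 7.51% of all windows. The EGR motif was found in 2 (Zfp36 and Fosb) and in 3.47% of all windows. The AP-1 motif TGANTCA was found in 0 of the 8 and in 7.81% of all windows. A match describes these letters only, and the absence of one says nothing of sites outside the window.

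In PTS2 tubules the response genes were at low to moderate levels, and each of the 9 genes that was detected lay lower in every tubule than in every whole kidney library, as did 20% of all 30969 genes detected. Fos and Fosb, of the Fos family of AP-1 subunits, were at or near 0. Dusp1 was the most abundant of the 10 in tubules, with a mean of 24.8 ± 5.41 TPM (SD, n = 12), followed by Zfp36 at 17.5 ± 2.07 TPM. Ier2, Ier3, Junb and Jun lay close together between 3.65 and 5.18 TPM, and Atf3, Egr1 and Fos were below 1 TPM. Dusp1 exceeded Zfp36, and Zfp36 exceeded Ier2, in 12 of 12 tubules. The order within the middle group was not separated by the spread, since Ier2 exceeded Ier3 in 8 tubules, Ier3 exceeded Junb in 7 and Junb exceeded Jun in 7 of 12. Whole kidney had another order: Dusp1 and Ier3 led, at 70.9 ± 22.4 and 57.3 ± 17.2 TPM (SD, n = 3), and Zfp36 and Jun followed.

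**Figure D1:**
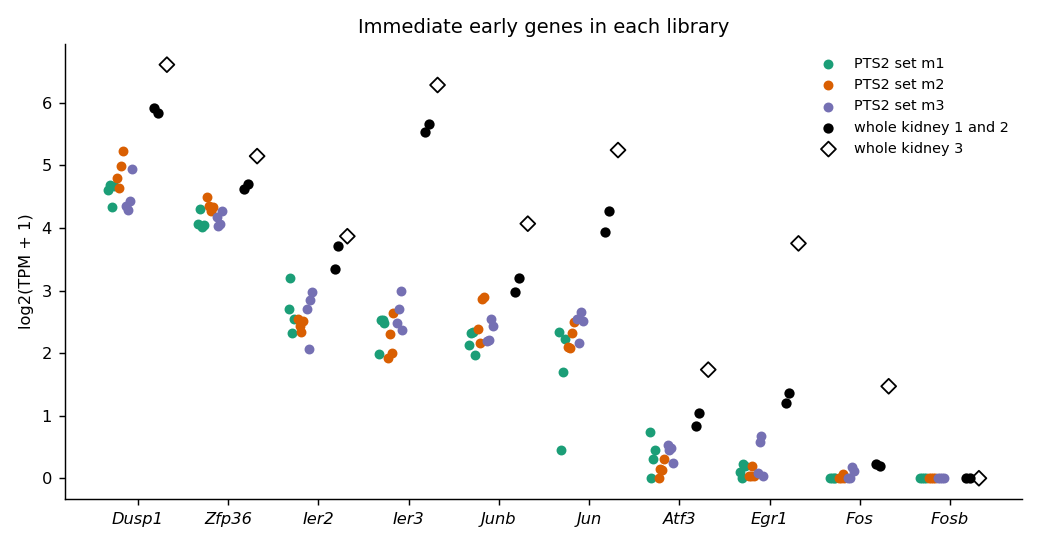
Expression of each gene as log2(TPM + 1), with 1 point per library, coloured by PTS2 set or black for whole kidney (open diamond: replicate 3). For each gene except Fosb, listed at 0 in all 15 libraries, the tubules lie below the kidney libraries, and the diamond is the highest point.

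Fos encodes the AP-1 subunit that pairs with Jun proteins (chromosome 12, 85473890 to 85477273, plus strand, GRCm38, protein-coding with 4 exons in its principal transcript). It was at 0.17, 0.14 and 1.77 TPM in whole kidney replicates 1, 2 and 3. In PTS2 it was listed at 0 in 9 of 12 tubules and reached 0.05 TPM in m2 replicate 3, 0.13 TPM in m3 replicate 3 and 0.08 TPM in m3 replicate 4. The groups did not overlap, but the nearest values, 0.13 and 0.14 TPM, were almost equal. Fosb (chromosome 7, 19302696 to 19310051, minus strand), a second Fos family member, was listed at 0 in all 15 libraries, so nothing can be compared for it.

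Egr1, a zinc finger transcription factor of the serum response (chromosome 18, 34859823 to 34864984, plus strand), was at 1.29, 1.56 and 12.5 TPM in whole kidney. Its PTS2 values ran from 0 to 0.59 TPM with a median of 0.065 TPM. Tubules did not overlap with kidney, and the kidney mean of 5.11 TPM rests mostly on replicate 3. Atf3, a stress-induced member of the ATF/CREB family (chromosome 1, 191170296 to 191218039, minus strand), was at 0.78, 1.05 and 2.33 TPM in whole kidney. In tubules it ran from 0 (m1 replicate 2 and m2 replicate 1) to 0.66 TPM (m1 replicate 1), with a median of 0.24 TPM. The highest tubule came close to the lowest kidney value.

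Jun, the main AP-1 partner of Fos proteins, is encoded by a gene of a single exon (chromosome 4, 95049034 to 95052222, minus strand). It was at 14.4, 18.4 and 36.9 TPM in whole kidney and between 0.37 and 5.3 TPM in tubules, with a median of 3.84 TPM. The low end was 1 tubule, m1 replicate 2, and the next lowest was m1 replicate 3 at 2.26 TPM. Junb, a related AP-1 subunit that restrains Jun (chromosome 8, 84974484 to 84978718, minus strand), was nearer to kidney. It was at 6.91, 8.15 and 15.8 TPM in whole kidney and between 2.92 and 6.47 TPM in tubules, with a median of 4.02 TPM. The 2 highest tubules, m2 replicates 3 and 4 at 6.27 and 6.47 TPM, came close to the lowest kidney library.

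Dusp1, a phosphatase that switches off MAP kinases (chromosome 17, 26505590 to 26562128, minus strand), was at 59.6, 56.4 and 96.7 TPM in whole kidney. In tubules it ran from 18.4 to 36.4 TPM with a median of 24.2 TPM, well clear of kidney. Zfp36, or tristetraprolin, binds AU-rich elements in mRNAs and speeds their decay (chromosome 7, 28376784 to 28380253, minus strand). It was at 23.8, 25.1 and 34.5 TPM in whole kidney and from 15.1 to 21.7 TPM in tubules, with a median of 17.7 TPM, and the groups did not overlap.

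Ier2, a nuclear protein induced by growth factors (chromosome 8, 84661331 to 84662852, minus strand), was at 9.11, 12.0 and 13.6 TPM in whole kidney. Its tubule values ran from 3.18 to 8.15 TPM with a median of 4.83 TPM. Ier3, which modulates survival and ERK signalling (chromosome 17, 35821684 to 35822923, plus strand), was at 45.3, 49.5 and 77.0 TPM in whole kidney. In tubules it ran from 2.79 to 6.92 TPM with a median of 4.59 TPM, far below kidney. The whole kidney mean was above the PTS2 mean 12.9-fold for Ier3, 6.37-fold for Jun, 2.85-fold for Dusp1, 2.41-fold for Junb, 2.23-fold for Ier2 and 1.59-fold for Zfp36.

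PTS2 and whole kidney were then compared in 1 fit over all genes, with limma on log2(TPM + 1). Genes averaging 1 TPM or more over all 15 libraries entered, 12039 in number, and 41.5% of them were lower in PTS2 and 9.68% higher at an adjusted p under 0.05. Of the 10 genes, 7 entered the fit, and each was lower in PTS2. The largest log2 difference was that of Ier3, at -3.41 ± 0.21 (SE, limma adjusted p = 5.4e-10). Jun followed at -2.36 ± 0.36 (adjusted p = 4.11e-05), and Dusp1 at -1.46 ± 0.19 (adjusted p = 6.75e-06). Junb and Ier2 both differed by -1.04, with SE of 0.21 and 0.20 (limma adjusted p = 0.000719 and 0.000336). Zfp36 differed least, by -0.63 ± 0.12 (adjusted p = 0.000355). Egr1, at -1.92 ± 0.36 (adjusted p = 0.000337), reached the filter only through whole kidney replicate 3, so its call was partly set by the filter. With each set of tubules reduced to 1 mean, all 7 still passed as lower, where 5438 of 12039 genes did. The p-values were larger there (limma adjusted p = 8.37e-06 for Ier3, 0.00929 for Zfp36, 0.0138 for Junb and 0.0326 for Egr1). With no filter, 9 genes could be tested, Fos and Atf3 among them, and all 9 passed as lower, where 26.9% of 30969 genes did (Fos adjusted p = 0.0175, Atf3 0.000972). In bulk libraries, fewer cells of a type and less RNA per cell cannot be told apart.

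The size of these differences depended on the scaling. Over all tested genes the median difference (log2) was -0.27 as deposited, -0.0030 after median-of-ratios rescaling and 0.16 after quantile normalization. Relative to the first of these medians, Ier3 was at -3.15, Jun at -2.09, Dusp1 at -1.19 and Zfp36 at -0.36 on the log2 scale. All 7 stayed lower under each scaling, and all 7 passed after median-of-ratios rescaling, where 23.7% of all genes passed as lower and 23.5% as higher. After quantile normalization 4 passed (Ier3, Jun, Dusp1 and Egr1), where 18.9% of all genes passed as lower and 34.6% as higher. Zfp36 was then at -0.29 (adjusted p = 0.0613), Ier2 at -0.44 (adjusted p = 0.0691) and Junb at -0.40 (limma adjusted p = 0.174). Among all tested genes, Ier3 lay at percentile 1.98 of the differences, Jun at 5.30, Egr1 at 7.26, Dusp1 at 9.58 and Zfp36 at 24.7.

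**Figure D2:**
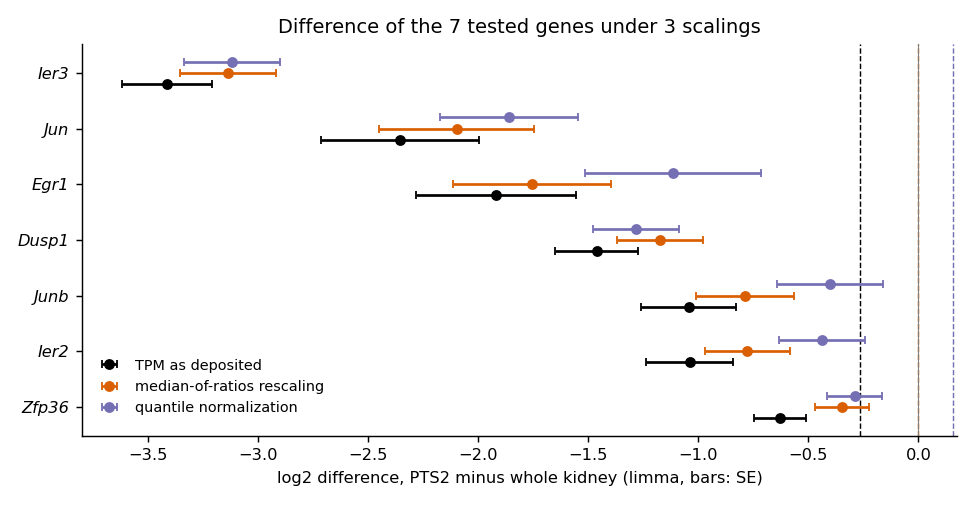
Log2 difference (PTS2 minus whole kidney, x axis) of the 7 genes in the fit, with SE bars, under 3 scalings; dashed lines give the median of all genes tested under each. Each gene lies below 0 and below the dashed line of its own scaling, Ier3 farthest (-3.41) and Zfp36 nearest (-0.63) as deposited.

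Markers of other cell types moved with this comparison. Every PTS2 library was below every kidney library for 8 of 8 endothelial markers, whose sum was 28.2 to 110 TPM in PTS2 and 334 to 356 TPM in whole kidney. The same held for 6 of 6 smooth muscle and pericyte markers (0.04 to 4.01 TPM against 82.6 to 98.4 TPM), for 5 of 5 fibroblast markers (0.89 to 5.37 TPM against 79.6 to 99.7 TPM) and for 6 of 7 macrophage markers (29.2 to 83.6 TPM against 124 to 164 TPM). Of these lists, the smooth muscle marker Cnn1 had a PTS2 median of 0. Other nephron cells followed, with 5 of 5 thick ascending limb, 3 of 3 distal convoluted tubule and 4 of 4 principal cell markers below. So did 4 of 4 intercalated cell and 5 of 5 podocyte markers (Nphs1 at a PTS2 median of 0). For lymphocyte markers the count was 3 of 5. The thick ascending limb sum had a PTS2 median of 10.7 TPM beside a kidney mean of 2569 TPM. Of all 30969 genes detected, 20% were below in this way. The part of these cells in the kidney levels of the immediate early genes was not tested.

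The whole kidney libraries differed among themselves. Replicate 3 was the highest of the 3 for each of the 9 detected genes, where it was the highest for 25.9% of the 13334 genes averaging 1 TPM or more in kidney. Fos was 11.4-fold and Egr1 8.76-fold above the mean of replicates 1 and 2. The factor was 2.55 for Atf3, 2.25 for Jun, 2.10 for Junb, 1.67 for Dusp1, 1.62 for Ier3, 1.41 for Zfp36 and 1.29 for Ier2. On the log2(TPM + 1) scale these differences lay between percentiles 94.1 (Ier2) and 99.8 (Egr1) of all those genes. Of the other immediate early genes averaging 1 TPM or more in kidney, 18 of 27 were highest in replicate 3, and so were 8 of 10 heat shock genes. The count was 6 of 11 for MAP kinase feedback inhibitors, 6 of 26 for the MAP kinase cascade and 1 of 9 for AP-1 partners. For SRF, ternary complex and CREB activators it was 3 of 12, and for AU-rich element binding proteins 1 of 7. The endothelial sum was 341 TPM in replicate 3, between the 334 and 356 TPM of the others, and the macrophage sum was 142 TPM, between 124 and 164 TPM. The smooth muscle and pericyte sum was highest there (98.4 TPM against 82.6 and 82.8 TPM), as were those of principal cells (823 against 557 and 616 TPM) and of the thick ascending limb (2723 against 2557 and 2425 TPM). Of the proximal segments, the S1 sum was highest there (892 against 818 and 864 TPM). The S2 sum (719 against 781 and 772 TPM) and the S3 sum (1008 against 1254 and 1314 TPM) were lowest. Their part in the difference was not tested. The difference of 1 library among 3 has no replicate check.

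**Figure D3:**
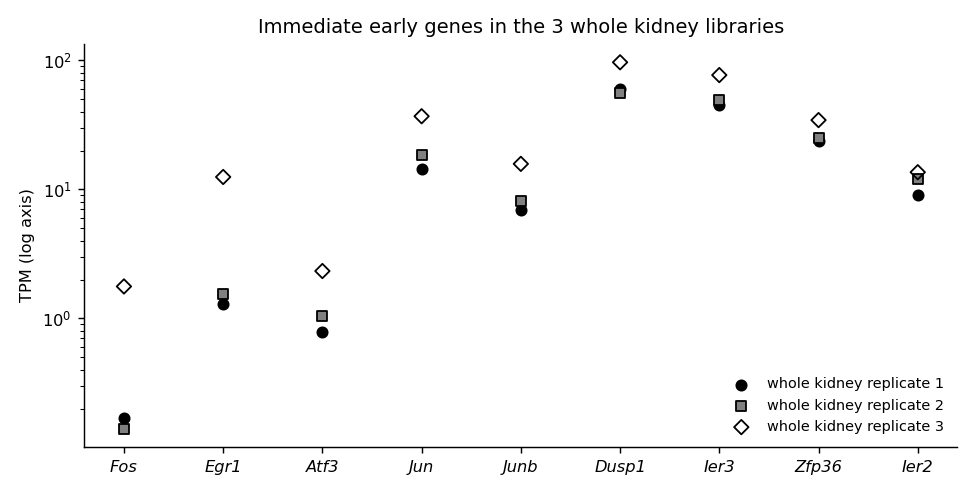
TPM on a log axis for 9 genes in whole kidney replicates 1 (circle), 2 (square) and 3 (open diamond); Fosb, at 0, is left out. Replicate 3 is the highest for every gene shown, most for Fos (1.77 against 0.17 and 0.14 TPM) and Egr1 (12.5 against 1.29 and 1.56 TPM).

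Without that library the tubules were still lower, but closer. PTS2 held 14.0% of the mean of kidney replicates 1 and 2 for Fos (3.13% of the mean of all 3) and 10.4% for Egr1 (2.90%). The share was 9.36% for Ier3 (7.75%), 22.3% for Jun (15.7%), 28.3% for Atf3 (18.7%), 42.8% for Dusp1 (35.0%), 49.0% for Ier2 (44.8%), 56.7% for Junb (41.5%) and 71.6% for Zfp36 (63.0%). In the fit without whole kidney replicate 3, 4024 genes passed as lower, beside 4996 with all libraries. The number of genes tested in that fit is not given here, so the count has no share beside it. Egr1 no longer reached the filter there, and the other 6 passed as lower, with Junb at -0.72 ± 0.21 (limma adjusted p = 0.0131) and Zfp36 at -0.47 ± 0.12 (adjusted p = 0.00704). With no filter either, a setting added after the data were seen, all 9 passed, where 25.2% of 30805 genes did. Egr1 was then at -1.09 ± 0.16 (limma adjusted p = 8.36e-05) and Fos at -0.18 ± 0.04 (adjusted p = 0.00498).

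Among the tubules, the 3 sets were compared for the 6 genes averaging 1 TPM or more in PTS2. None passed the F test of limma at an adjusted p under 0.05, where 3.02% of 11300 genes did, and 1 of 6 (Zfp36) had an unadjusted p under 0.05, where 16.4% of genes did. In the order m1, m2, m3, Zfp36 averaged 16.3 ± 1.62, 19.6 ± 1.43 and 16.6 ± 1.37 TPM (limma adjusted p = 0.270; SD, n = 4 per set). Its m2 values, from 18.32 TPM up, overlapped those of m1 (up to 18.65 TPM) and lay just above those of m3 (up to 18.31 TPM).

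Dusp1 was at 23.5, 24.8, 19.2 and 24.4 TPM in replicates 1 to 4 of m1, at 26.8, 23.9, 30.9 and 36.4 TPM in m2, and at 19.5, 18.4, 20.5 and 29.8 TPM in m3. The sets overlapped, m2 being higher in the mean (29.5 ± 5.43 TPM, SD, n = 4) than m1 (23.0 ± 2.60 TPM) and m3 (22.1 ± 5.21 TPM). The log2 difference was 0.34 ± 0.16 for m2 minus m1 and -0.41 ± 0.16 for m3 minus m2 (SE), with a limma adjusted p of 0.307 over the sets.

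Jun was at 4.08, 0.37, 2.26 and 3.70 TPM in m1, at 3.27, 3.21, 3.98 and 4.67 TPM in m2 and at 4.81, 3.46, 5.30 and 4.68 TPM in m3. Its log2 difference between m3 and m1 was 0.78 ± 0.33 (SE), and the sets overlapped (limma adjusted p over the sets = 0.388). Without m1 replicate 2 it was 0.37 ± 0.19 (limma adjusted p over the sets = 0.547). In the order m1, m2, m3, Junb averaged 3.59 ± 0.534, 5.10 ± 1.5 and 4.12 ± 0.603 TPM, Ier2 5.61 ± 1.80, 4.50 ± 0.350 and 5.44 ± 1.60 TPM, and Ier3 4.29 ± 0.874, 3.74 ± 1.11 and 5.29 ± 1.22 TPM (SD, n = 4 per set). The sets overlapped for all 3 of these genes, with limma adjusted p between 0.469 and 0.767. The SE of a difference between sets ran from 0.10 (Zfp36) to 0.33 (Jun, 0.19 without m1 replicate 2), and differences of that order were not detectable with these libraries.

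**Figure D4:**
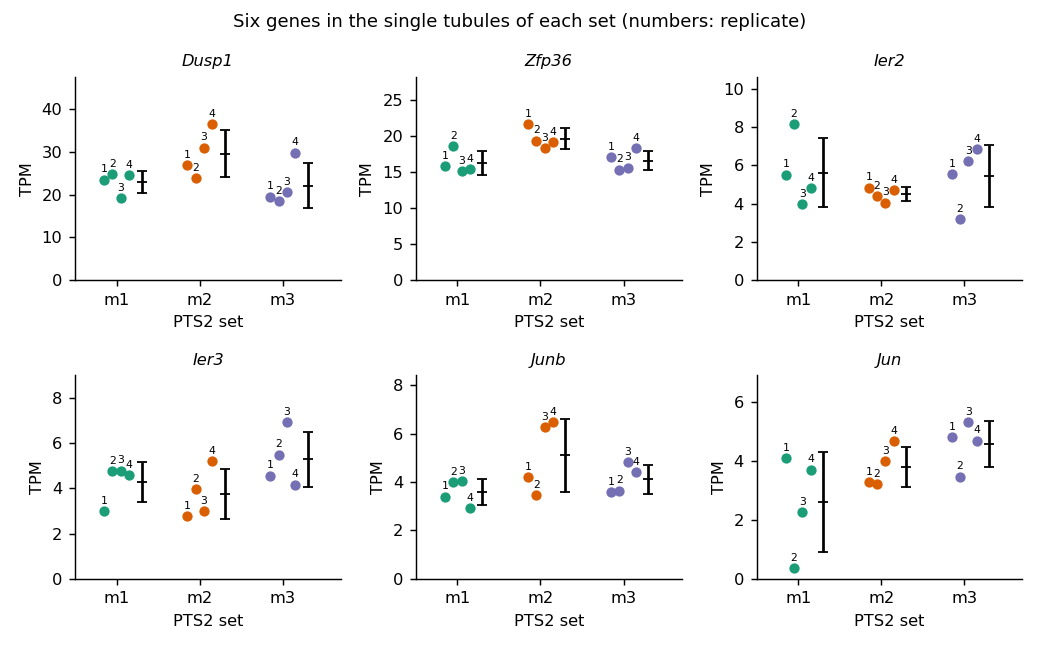
TPM of 6 genes in each tubule by set (points, numbered by replicate), with the mean and SD of each set beside them (n = 4). The sets overlap for each gene except Zfp36, whose lowest m2 tubule (18.32 TPM) lies just above the highest of m3 (18.31 TPM), and m1 replicate 2 is the lowest point for Jun (0.37 TPM) and the highest for Ier2 (8.15 TPM).

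The libraries of the same replicate number were compared across sets, with the set as a factor. None of the 6 genes passed the F test over the 4 numbers (limma), where 2.71% of 11300 genes did, and 0 of 6 had an unadjusted p under 0.05, where 21.1% of genes did. The lowest unadjusted p was that of Dusp1, at 0.0532 (limma adjusted p = 0.243). Dusp1 was highest in replicate 4 within m2 and within m3, and within m1 in replicate 2.

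Tubule m3 replicate 3 was the highest of the 12 for 4 of the 9 detected genes, Fos, Egr1, Jun and Ier3. The share of all genes highest in this tubule was not computed, so this count has no background. This tubule also had the most genes at 1 TPM or more, 11511, where the other 11 had 10983 to 11345. Ier3 was at 6.92 TPM there, against 5.49 TPM in the next tubule and a median of 4.57 TPM in the other 11. Egr1 was at 0.59 TPM against 0.50 TPM next, and Jun at 5.30 against 4.81 TPM. This is the tubule with thick ascending limb markers at 1441 TPM, and its endothelial sum, 105 TPM, was the second highest. The part of these markers was not tested. All 7 genes in the fit against whole kidney stayed lower without it, Ier3 at -3.46 ± 0.19 and Egr1 at -1.96 ± 0.36 (SE).

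How the genes varied from tubule to tubule differed by gene. The SD of log2(TPM + 1) over the 12 tubules was 0.59 for Jun, above 90.6% of the 1764 genes within 1.5-fold of its mean level. That value rested on m1 replicate 2 (0.37 TPM), the tubule with the most genes listed at 0 (30849). Over the other 11 tubules the SD was 0.27, above 58.8% of 1779 such genes. For Dusp1 it was 0.29, above 80.4% of 2030 such genes, and for Zfp36 0.16, above 19.1% of 2053. Ier2 and Ier3 were at percentiles 59.6 and 59.8, and Junb at 48.7. As deviations from set means over 12 tubules, 7 of the 15 pairs among these 6 genes had a positive Pearson r, and the median r was -0.03. The highest was that of Zfp36 and Ier2 (0.77) and the lowest that of Jun and Zfp36 (-0.56). Without m1 replicate 2, 11 of the 15 were positive, the median was 0.27, and Jun and Zfp36 were at 0.07. These describe tubules that share sets and amplification, and no p is attached.

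The other genes of the pathway were counted in the same fit of PTS2 against whole kidney, to be read beside the shares of all genes, 41.5% lower and 9.68% higher as deposited, 23.7% and 23.5% after median-of-ratios rescaling, and 18.9% and 34.6% after quantile normalization. Of 32 other immediate early genes, 23 were tested, and 15 were lower and 2 higher in PTS2, which became 14 and 3 after median-of-ratios rescaling and 13 and 5 after quantile normalization. Their median log2 difference was -1.36, beside -0.27 for all genes. The lowest were Ctgf, a secreted target of YAP and TGF-beta signalling (3.03 ± 1.58 TPM in PTS2, 65.6 ± 9.96 TPM in kidney), the antiproliferative gene Btg2 (1.25 ± 0.640 against 14.6 ± 3.52 TPM) and Klf2, a factor typical of endothelium (0.991 ± 0.369 against 12.8 ± 0.874 TPM). Klf2 and Csrnp1, both among the 15 lower, averaged below 1 TPM in tubules and reached the filter only through kidney. The 2 higher were Cebpb, a leucine zipper factor of the acute phase response, at 51.1 ± 8.73 against 30.1 ± 2.15 TPM (log2 difference 0.73, limma adjusted p = 0.000674), and Cyr61, a matricellular protein, at 36.6 ± 10.5 against 23.6 ± 2.16 TPM (0.56, limma adjusted p = 0.0388). Both stayed higher under each scaling. Nr4a1, an orphan nuclear receptor that did not reach the filter and was named after its values were seen, as were Srf and Jund below, averaged 0.0992 ± 0.112 TPM over the tubules and 2.33 ± 1.91 TPM over the kidneys.

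**Figure D5:**
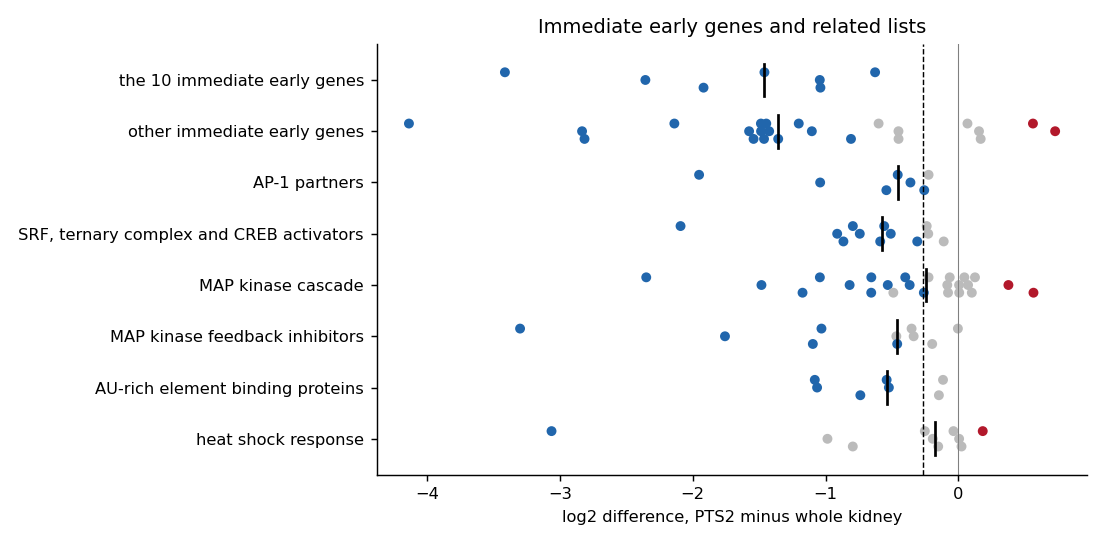
Log2 difference (PTS2 minus whole kidney) of each tested gene by list; blue and red points are lower and higher at an adjusted p under 0.05, grey did not pass, black bars are list medians and the dashed line is the median of all genes (-0.27). The median was -1.46 for the 7 of the 10 genes that entered the fit and -1.36 for the other immediate early genes.

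Upstream components were counted in the same way. Of 24 tested genes of the MAP kinase cascade, 11 were lower and 2 higher in PTS2, near the shares of all genes, with a median of -0.24, and the split was 7 lower and 8 higher after median-of-ratios rescaling and 6 and 7 after quantile normalization. The lowest was Mapkapk3, a kinase downstream of p38, at 2.36 ± 0.864 against 15.7 ± 0.841 TPM, then Rps6ka1 and Map2k1. Mapk13, the p38 delta kinase, was among the higher (26.7 ± 5.93 against 17.3 ± 1.09 TPM). Of 12 SRF, ternary complex and CREB activators, 9 were lower and 0 higher as deposited, 6 and 0 after median-of-ratios rescaling, and 2 and 2 after quantile normalization. Elk3, a ternary complex factor, was the lowest (0.601 ± 0.295 against 5.74 ± 0.631 TPM). Elk3 and Mkl1, both among the 9 lower, reached the filter only through kidney, so their calls were partly set by it. Srf itself averaged 4.49 ± 0.534 TPM over the tubules and 6.80 ± 0.684 TPM over the kidneys, a log2 difference of -0.51 that turned to 0.20 after quantile normalization.

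Of the 7 tested AP-1 partners, 6 were lower and 0 higher (3 and 0 after median-of-ratios rescaling, 1 and 0 after quantile normalization), Jdp2, an AP-1 repressor, most of all (1.14 ± 0.417 against 7.23 ± 1.5 TPM). Jund, the constitutively expressed Jun protein, averaged 21.8 ± 2.31 TPM over the tubules and 26.2 ± 1.86 TPM over the kidneys, a log2 difference of -0.26 as deposited (limma adjusted p = 0.0411) and 0.02 after median-of-ratios rescaling. Of 10 tested MAP kinase feedback inhibitors, 5 were lower and 0 higher (4 and 0, and 3 and 2, under the other scalings), with Spry1, an inhibitor of receptor tyrosine kinase signalling, at 1.39 ± 0.659 against 21.9 ± 3.11 TPM. Of 7 AU-rich element binding proteins, 5 were lower and 0 higher (3 and 0, and 2 and 2), with Tia1 at 10.0 ± 1.74 TPM against 22.2 ± 2.24 TPM. Of 10 heat shock genes, 1 was lower (Hspb1, 3.40 ± 1.40 against 36.0 ± 14.8 TPM) and 1 higher (Dnaja1, 207 ± 11.8 against 182 ± 14.3 TPM), and these counts were 1 and 2, and 2 and 1, under the other scalings.

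Among the 3 sets, other genes of the response passed the test. Of 21 tested other immediate early genes, 6 passed the F test of limma, where 3.02% of all genes did (7.86% with the replicate number as a block), among them Sgk1 and Gadd45a, lower in m3 than in m1, and Gadd45g and Cyr61, higher in m3 than in m1. In the order m1, m2, m3, the growth arrest gene Gadd45a averaged 14.4 ± 2.43, 9.98 ± 1.2 and 7.04 ± 1.44 TPM (limma adjusted p = 0.0108; SD, n = 4 per set). Its relative Gadd45g averaged 33.2 ± 3.85, 17.995 ± 2.34 and 55.8 ± 7.29 TPM (limma adjusted p = 2.64e-05), and Cyr61 25.0 ± 2.56, 46.0 ± 8.15 and 38.8 ± 5.36 TPM (limma adjusted p = 0.00674). Of the 10 heat shock genes, 4 passed, and of the AP-1 partners 1 (Atf4) and of the feedback inhibitors 1 (Dusp14). With the replicate block the feedback inhibitors numbered 3 of 10, and the other 3 counts were the same. Whether these genes differ from the 10 in their change between sets was not tested.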

How the data were processed

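RNA was measured in 12 single PTS2 tubules and 3 whole kidneys from polyA RNA amplified with a SMART-Seq V4 kit, per the labels. The authors deposited 1 table of TPM values, which sum to 1000000 in each library, beside their own means and standard errors (a signal column the authors deposited, not used here). STAR 2.5.1b, RSEM 1.2.31 and GRCm38.p5 are named in the submitters' processing notes, and the annotation is not given in the sources used here. Depth is unknown, since TPM keep none, so no count test was possible.

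Differences were fitted with limma 3.58.1 in R 4.3.3 on log2(TPM + 1) over genes averaging 1 TPM or more, with Benjamini-Hochberg adjustment at 0.05. PTS2 was compared with whole kidney with the set as a correlated block (correlation 0.0669). Sets, and replicate numbers with set as a factor, were compared by F tests. The script was tested on simulated data. Alternatives were other scalings, filters and pseudocounts, no within-set correlation, 1 mean per set, the replicate number as a block, and leaving out each library. Leaving out tubules for spreads and correlations was added after the data were seen. The 10 genes and the lists were chosen with earlier results of these data known. Named genes of other lists are up to 3 per direction with the largest difference past the threshold (2 among sets), 1 of which is not reported here. All 10 genes matched the GENCODE M21 annotation, which gave positions.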

Additional observations from a re-analysis of the deposited data

Results flagged for a closer look

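Within sets of 4 tubules, 41 groups of values were checked for a library standing apart from the other 3 by Dixon's test, and 5 did, where chance alone gives 1 in 20, or 2.05. That rate does not hold for Fos and Egr1 here, since their other 3 values were tied. Fos was at 0.05 TPM in m2 replicate 3 and listed at 0 in the other 3 tubules of m2. Egr1 was at 0.15 TPM in the same tubule and at 0.02 TPM in each of the others. Ier3 was at 2.98 TPM in m1 replicate 1, where the other tubules of m1 were at 4.60 to 4.79 TPM. The summed thick ascending limb markers were at 55.83 TPM in m1 replicate 4, against 8.54 to 10.61 TPM in the rest of m1. They were at 1440.62 TPM in m3 replicate 3, against 4.75 to 17.1 TPM in the rest of m3.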

How the results depend on the processing

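Direction held for every gene of the 10 tested under each alternative run. Of the 10 genes, 7 passed as lower in PTS2 than in whole kidney, 3 with a filter of 10 TPM (fewer genes tested), 4 after quantile normalization and 6 to 7 with 1 library left out (6 without whole kidney replicate 3). Over all genes, 4996 were lower: 8325 with no filter, 2130 with the filter of 10 TPM, 2859 after median-of-ratios rescaling, 2273 after quantile normalization, and 7751 with neither filter nor whole kidney replicate 3, chosen after seeing the data. Higher genes numbered 1165: 2830, 4164 and 751 under the last 3 of these. With 1 library left out, 3752 to 5397 were lower and 807 to 1315 higher. The numbers of genes tested with the filter of 10 TPM and with 1 library left out are not given here. The counts of the 10 genes in those runs therefore have no share of all genes beside them.

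Among sets, 341 genes passed, 196 with no filter and 197 to 563 with 1 tubule left out (563 without m1 replicate 1, and 220, 197, 226 and 209 without m2 replicate 2 and m3 replicates 1, 2 and 3). Among replicate numbers, 306 passed, 75 to 507 with 1 tubule left out (151 and 75 without m1 replicates 1 and 4, 108, 507 and 153 without m2 replicates 1, 2 and 4, and 182, 201 and 110 without m3 replicates 1, 2 and 4). With no filter limma called 0 there, and 2871 had an unadjusted p under 0.05. The cause of these shifts was not tested.

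Tubules of different sets were correlated over genes averaging 1 TPM or more in PTS2, each value taken as the deviation from its set mean. Same-numbered tubules then correlated at a mean r of 0.14 over 12 pairs, with 7 pairs above 0.1. Tubules of different numbers correlated at a mean r of -0.05 over 36 pairs. Centring by set pulls that value down when same-numbered tubules correlate, so it adds no separate support. Of 12 tubules, 10 correlated best with their own number, and the S2 marker sum was highest in number 4 of each set. Same-numbered tubules thus shared part of their variation, but the main set tests did not take the numbers as pairs. With a replicate block, 888 genes passed among sets, beside 341 without it. With the block, 0 of the 6 genes tested among sets passed, where 7.86% of 11300 genes did. Of the 10 genes, the 7 tested against kidney were lower, where 5034 of 12039 genes were. TPM give no depth, so the counting error of values near 0 cannot be estimated.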

Other observations

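The genes whose tubule-to-tubule pattern was most like the mean of the 6 immediate early genes with at least 1 TPM in PTS2 were named by Pearson r over 12 tubules, as deviations from set means, among 11294 genes. They were B3gnt8 (r = 0.97), Mroh7 (0.92), Idh2, the mitochondrial isocitrate dehydrogenase (0.92), Acsl1, a fatty acid activating enzyme (0.90), Skida1 (0.90) and Lrp12 (0.89). Without centring by set, 1 of these 6, B3gnt8, was again among the nearest 6. With 1 tubule left out (tried after seeing the data), 2 to 4 of the 6 were again among the nearest 6. These are the highest of many r values over few tubules, given as a description.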
